A study of Homo sapiens with 2 samples.

Results

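Molecular chaperones and protein folding enzymes were followed in S2-013 cells, a human pancreatic cancer cell line, with and without a MEK inhibitor. Members were taken by gene symbol, with earlier results of these data known when the symbols were chosen. The symbols begin with HSPA, HSPB, HSPD, HSPE, HSPH, HSP90, DNAJ, BAG, CCT, PDIA, FKBP, PPI, PFDN, STUB or HSF, with a digit after CCT and BAG and a letter after PPI. PPIP symbols and antisense symbols were left out. This gave 54 of the 13763 genes named on the array, read by 70 probe sets. They comprise 48 genes, 5 pseudogenes and 1 readthrough transcript (HSPB2-C11orf52). No named probe set carried a symbol beginning with HSPE, HSP90, DNAJ, CCT, PDIA or STUB. HSP10, the HSP90s, J-domain proteins, the CCT chaperonin, the protein disulfide isomerases and STUB1 are therefore not analysed here. HSPA5, HSPA8, BAG6, FKBP1A, FKBP4, HSPB6, HSPB7 and HSF2 had no named probe set either. The HSP70, BAG, FKBP, small heat shock protein and heat shock factor families were thus read only in part.

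The group treated with MEK inhibitor was S2-013 cells in which HOXB7, a homeobox transcription factor, had been knocked down and which then received a plasmid for rescue expression of HOXB7. The group without inhibitor carried the same knockdown and the same plasmid, so that by the labels the inhibitor separates the 2 groups. Each was measured on 1 Affymetrix whole-transcript array. The name of the inhibitor, its dose and the exposure time were not given in the sources used here, and S2-013 is a line in culture without stroma. The arrays were run, per the series' design text, to find factors and pathways controlled by HOXB7 and MEK.

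Chaperones bind unfolded or partly folded proteins and keep them from aggregating while they fold. HSP70 proteins cycle on and off such clients by ATP hydrolysis, and nucleotide exchange factors of the HSP110 and BAG families release the client. HSP60 encloses proteins in a chamber in the mitochondrial matrix, prefoldin hands nascent actin and tubulin to the cytosolic chaperonin, and the cyclophilins and FKBP proteins are prolyl isomerase families. Many of these genes are induced together by the transcription factor HSF1 when proteins unfold, through heat shock elements in their promoters.

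Values are deposited log2 probe set values, and a difference is the value with MEK inhibitor minus the value without. With 1 array per group no test was possible and no value has a replicate error, so "higher" and "lower" describe these arrays only. In their place stands the gap between the differences of probe sets that read 1 gene. Over 443 probe set pairs from 145 genes this gap had a median of 0.16 and a 95th percentile of 0.799, and it does not cover variation between cultures. A gene counts as measured if at least 1 of its values is 4.78 or more, which is the median gene's mean level and is called the floor. Of the members 42 reached it, as did 7164 genes in all. Of 10 epithelial markers 7 were named and all 7 reached the floor. They ranged from KRT18 (11.29 with inhibitor, 11.58 without) and EPCAM (10.50 with, 10.46 without) down to KRT7. KRT7 reached it only with inhibitor (4.91 with, 4.56 without). Of the named leukocyte, fibroblast, endothelial and acinar or endocrine markers, 1 of 3, 1 of 3, 2 of 5 and 1 of 4 reached the floor. The leukocyte marker was CD68, bright at 8.53 with inhibitor and 8.95 without. On a list of 18 ERK feedback and target genes 13 were measured. All 13 were lower with MEK inhibitor, 9 of them by at least 2-fold, with a median difference of -1.26. That list was chosen with earlier results of these data known, so it serves here as the scale of the response and not as a result.

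No chaperone or folding gene was 2-fold higher or lower with MEK inhibitor. Among all genes above the floor 1.68% passed that threshold, 0.628% as higher and 1.05% as lower. At 1.5-fold, 3 of the 42 members passed (7.14%), against 8.22% of all genes, which is near the background. The cyclophilin gene PPIC was higher, and the cyclophilin gene PPIH and the HSP60 gene HSPD1 were lower. By direction, 1 member was higher against a background of 4.62%, and 2 were lower against 3.6%. The median difference of the 42 members was 0.01, and that of all genes 0.03, so that subtracting the all-gene median puts the members at -0.01. The median size of the difference, whatever its sign, was 0.17 for members and 0.19 for all genes. Within 1.2-fold lay 76.2% of members (32 of 42) and 63.9% of all genes. By sign alone, 23 members were higher and 19 lower, near the split of all 7164 genes, 3858 higher and 3303 lower. No member's difference was larger in size than 0.796. The 0.799 given above is for a gap between 2 differences, so it is no bound for a single difference. The SD of differences within a gene was 0.236. Of the 42 members 39 lay inside the central 95% of all genes (-0.69 to 0.72), and PPIC, PPIH and HSPD1 lay outside it. In bulk RNA, fewer cells with a transcript and less of it per cell cannot be told apart.

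**Figure D1:**
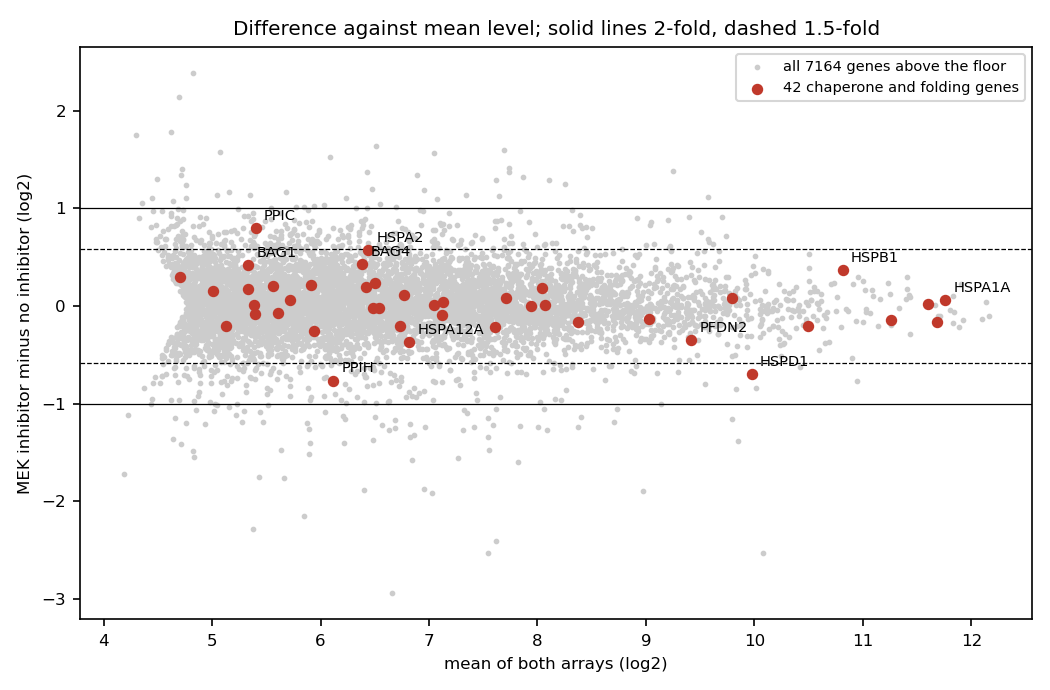
Difference in log2 value (vertical axis, MEK inhibitor minus no inhibitor) against the mean of both arrays in log2 (horizontal axis) for the 7164 genes above the floor (grey) and the 42 chaperone and folding genes (red). All members lie between the solid 2-fold lines, and PPIC, PPIH and HSPD1 lie outside the dashed 1.5-fold lines.

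The stress-inducible HSP70 genes HSPA1A and HSPA1B, the usual readout of a heat shock response, were nearly level between the arrays. HSPA1A read 11.79 with MEK inhibitor and 11.73 without it, a difference of 0.06. HSPA1B read 11.61 with MEK inhibitor and 11.59 without it, a difference of 0.02. The genes are near-identical copies, so the array may not tell their transcripts apart. Each is read by 5 probe sets, with differences from 0.01 to 0.07 for HSPA1A and from -0.04 to 0.04 for HSPA1B, and some of these probe sets hold the same values and are no independent readings. HSPA6, a strictly heat-induced HSP70 gene, lay below the floor at 4.45 with MEK inhibitor and 4.49 without it.

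Upstream of these genes, HSF1, the master heat shock factor, read 7.50 with MEK inhibitor and 7.71 without it, a difference of -0.21. HSF4, a heat shock factor known from lens development, read 6.02 with MEK inhibitor and 5.80 without it in the probe set with the higher mean. Its second probe set had the opposite sign (5.08 with and 5.25 without), so the array gives no direction for HSF4. HSF5 lay below the floor. HSPBAP1, which encodes a protein that associates with HSPB1, had a difference of 0.06, and HSF2BP, named for binding HSF2, lay below the floor.

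The other HSP70 members went both ways, with 4 of the family's 8 measured genes higher and 4 lower and a median of -0.02. HSPA2, an HSP70 gene best known from spermatogenesis, read 6.72 with MEK inhibitor and 6.15 without it. Its difference of 0.57 falls just short of the 1.5-fold threshold of 0.58, and 8.54% of all genes had one as large or larger in size. HSPA12A, an atypical HSP70, read 6.63 with MEK inhibitor and 7.002 without it (-0.37), while its second probe set, below the floor, differed by -0.01. The related HSPA12B read 4.85 with MEK inhibitor and 4.55 without it, below the floor, a difference of 0.29. HSPA14, which works at the ribosome, read 5.82 with MEK inhibitor and 6.07 without it (-0.25). The testis gene HSPA1L read 5.57 with MEK inhibitor and 5.64 without it in the probe set used, whereas its other 4 probe sets, 3 of which hold identical values, had positive differences of up to 0.17. The pseudogene HSPA7 was below the floor.

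Of the HSP110 family, which act as exchange factors for HSP70, all 3 genes were measured and none passed 1.5-fold. HSPH1 read 10.39 with MEK inhibitor and 10.59 without it (-0.20), and HSPA4 8.97 with and 9.10 without (-0.13). HSPA4L was on the other side, with 8.13 with MEK inhibitor and 7.95 without it (0.18). The small heat shock protein HSPB1 (HSP27), which holds unfolded proteins and is phosphorylated downstream of p38 MAP kinase, was 1.29-fold higher, at 10.997 with MEK inhibitor and 10.63 without it. Its difference of 0.37 ranked 924th from the highest among the 7164 genes. HSPB3 and HSPB8, a partner of BAG3, lay below the floor, HSPB8 at 3.72 with MEK inhibitor and 3.21 without it.

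The products of BAG genes bind the HSP70 ATPase domain and speed nucleotide exchange. All 5 BAG genes with a named probe set were measured and read higher as deposited, with a median difference of 0.24. Among all 7164 genes above the floor 3858 read higher. BAG2 fell on the other side of 0 once the median difference or a loess trend was subtracted. No BAG gene reached 1.5-fold. BAG4 read 6.60 with MEK inhibitor and 6.17 without it (0.43), and BAG1 5.54 with and 5.13 without (0.42). BAG5 followed at 6.62 with MEK inhibitor and 6.38 without it (0.24). The remaining genes were nearly level: BAG3, itself an HSF1 target with a role in selective autophagy, differed by 0.08 and BAG2, an inhibitor of STUB1, by 0.01.

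In the mitochondrial matrix, a grouping of members made after the values were seen, the HSP60 gene HSPD1 had the lowest difference of the folding genes measured there. HSPD1 read 9.63 with MEK inhibitor and 10.32 without it, a difference of -0.70 or 1.62-fold lower. It ranked 178th from the lowest of the 7164 genes, and 5.16% of all genes had a difference as large or larger in size. HSPA9 (mortalin), the HSP70 that draws imported proteins into the matrix, read 11.19 with MEK inhibitor and 11.33 without it (-0.14). PPIF, cyclophilin D of the permeability transition pore, read 9.83 with MEK inhibitor and 9.75 without it (0.08). From the list of mitochondrial protein quality control, TRAP1, the matrix HSP90, was also lower (10.08 with MEK inhibitor, 10.46 without, -0.38). Of the 17 genes on that list 10 were measured. The other 6 measured genes that are no members, the proteases and unfoldases CLPX, CLPB, YME1L1, AFG3L2, SPG7 and HTRA2, lay between -0.02 and 0.11. HSPD1 is read by 1 probe set, so no second reading of it was at hand.

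To set these differences beside the control element that heat shock genes share, 4 promoters are shown: HSPD1 for the lower, HSPA1A for the level and HSPB1 for the higher heat shock gene, and PPIH for the lowest difference among members. They are RefSeq windows of GRCh38.p14 from 250 bases before to 50 after an annotated start, written 5′ to 3′ on the gene's strand. For HSPD1, which has 2 annotated windows, the one with matches was taken. Capitals mark GAANNTTC or TTCNNGAA, the paired units of a heat shock element, in the first 3 and CCGGAAG, an ETS factor core, on either strand in PPIH.
HSPD1, chr2:197499791-197500090, minus strand: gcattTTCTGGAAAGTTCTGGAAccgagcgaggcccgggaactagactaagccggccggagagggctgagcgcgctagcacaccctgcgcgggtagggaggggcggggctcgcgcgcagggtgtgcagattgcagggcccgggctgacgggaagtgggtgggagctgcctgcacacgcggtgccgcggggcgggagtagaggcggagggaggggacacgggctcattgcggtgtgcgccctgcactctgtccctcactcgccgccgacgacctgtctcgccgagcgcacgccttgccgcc
HSPA1A, chr6:31815293-31815592, plus strand: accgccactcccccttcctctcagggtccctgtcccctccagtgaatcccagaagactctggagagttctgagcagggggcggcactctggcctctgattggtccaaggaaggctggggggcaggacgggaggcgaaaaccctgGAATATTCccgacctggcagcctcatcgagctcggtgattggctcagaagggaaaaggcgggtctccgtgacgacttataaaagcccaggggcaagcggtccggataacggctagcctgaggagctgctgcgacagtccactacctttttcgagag
HSPB1, chr7:76302423-76302722, plus strand: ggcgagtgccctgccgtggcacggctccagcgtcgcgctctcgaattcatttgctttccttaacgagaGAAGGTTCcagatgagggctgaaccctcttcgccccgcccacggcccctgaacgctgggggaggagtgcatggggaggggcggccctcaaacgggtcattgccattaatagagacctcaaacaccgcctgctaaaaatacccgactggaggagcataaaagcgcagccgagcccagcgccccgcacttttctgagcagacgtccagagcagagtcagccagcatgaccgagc
PPIH, chr1:42658173-42658472, plus strand: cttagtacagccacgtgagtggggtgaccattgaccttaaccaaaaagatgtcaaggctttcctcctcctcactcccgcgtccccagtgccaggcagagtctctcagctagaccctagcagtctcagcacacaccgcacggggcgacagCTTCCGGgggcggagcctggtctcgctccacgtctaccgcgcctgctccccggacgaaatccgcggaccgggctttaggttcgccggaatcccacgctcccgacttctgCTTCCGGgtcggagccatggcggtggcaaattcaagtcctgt
In HSPD1 the capitals join overlapping pairs into 1 run that holds the 3-unit element GAANNTTCNNGAA on both strands. HSPA1A and HSPB1 each hold 1 pair.

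All 35116 windows cover 27305 genes, more than the 13763 named on the array, so they include genes not read here. Shares of member windows and of all windows are thus taken over unlike sets of genes. Promoter windows were found for 38 of the 54 members (47 windows). Either heat shock pair occurred in 13 of these 47 windows (27.7%) and in 13.5% of all 35116 windows, both strands being covered because each pair reads the same on either strand. The 3-unit element, which contains both pairs, occurred in HSPD1 and HSPA6 and in 0.490% of all windows. The 9 measured members with a pair were BAG2, HSPA1A, HSPA1B, HSPA1L, HSPA4L, HSPA9, HSPB1, HSPD1 and PFDN6. HSPA1L lies head to head with HSPA1A, and both windows hold the same pair. Of these 9 genes 6 were higher and 3 lower with MEK inhibitor, from -0.70 to 0.37, with a median of 0.02. The 23 measured members with a window but no pair comprised 13 higher and 10 lower, with a median of 0.01 and a range from -0.76 to 0.80. The ETS core was held by 10 of the 47 member windows (21.3%) and by 10.3% of all windows, and in PFDN6 it overlaps the heat shock pair. The 9 measured members that hold it, BAG1, PFDN5, PFDN6, PPIB, PPID, PPIH, PPIL1, PPIL2 and PPIL4, comprised 4 higher and 5 lower, with a median of -0.09. The 23 measured members with a window but no ETS core comprised 15 higher and 8 lower, with a median of 0.06. A match is a description of letters and not of binding.

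The cyclophilins held both extremes of the whole group. PPIC, cyclophilin C of the secretory pathway, read 5.80 with MEK inhibitor and 5.004 without it, a difference of 0.80 or 1.74-fold higher. It ranked 128th from the highest of the 7164 genes. PPIH, a cyclophilin bound to the U4/U6.U5 particle of the spliceosome, read 5.73 with MEK inhibitor and 6.50 without it, a difference of -0.76 or 1.70-fold lower. It ranked 145th from the lowest. Both genes are read by 1 probe set, and whether PPIC was above background without MEK inhibitor is unknown, as no detection calls were used.

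The rest of the cyclophilins were close to level, and the family's 14 measured members had a median of -0.01. PPIB, cyclophilin B of the endoplasmic reticulum and a partner of collagen folding, read 11.60 with MEK inhibitor and 11.76 without it (-0.16), so the secretory cyclophilins PPIB and PPIC, set side by side after the values were seen, were on opposite sides. Of 7 cyclophilins of the nucleus and spliceosome, a group formed after the values were seen, PPIH was the one past 1.5-fold: PPIE (0.20), PPIL4 (0.04), PPIL3 (0.01), PPIL2 (0.01), PPIG (0.00) and PPIL1 (-0.16) all lay within 1.2-fold. PPID, a co-chaperone of HSP90 with a TPR domain, differed by -0.09. PPIA, cyclophilin A, read 6.53 with MEK inhibitor and 6.55 without it (-0.02). Its pseudogene copies PPIAP30 (-0.03) and PPIAP46 (-0.20) may share probes with it, so these values are uncertain. PPIL6, PPIAL4G and the pseudogene PPIEL lay below the floor.

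**Figure D2:**
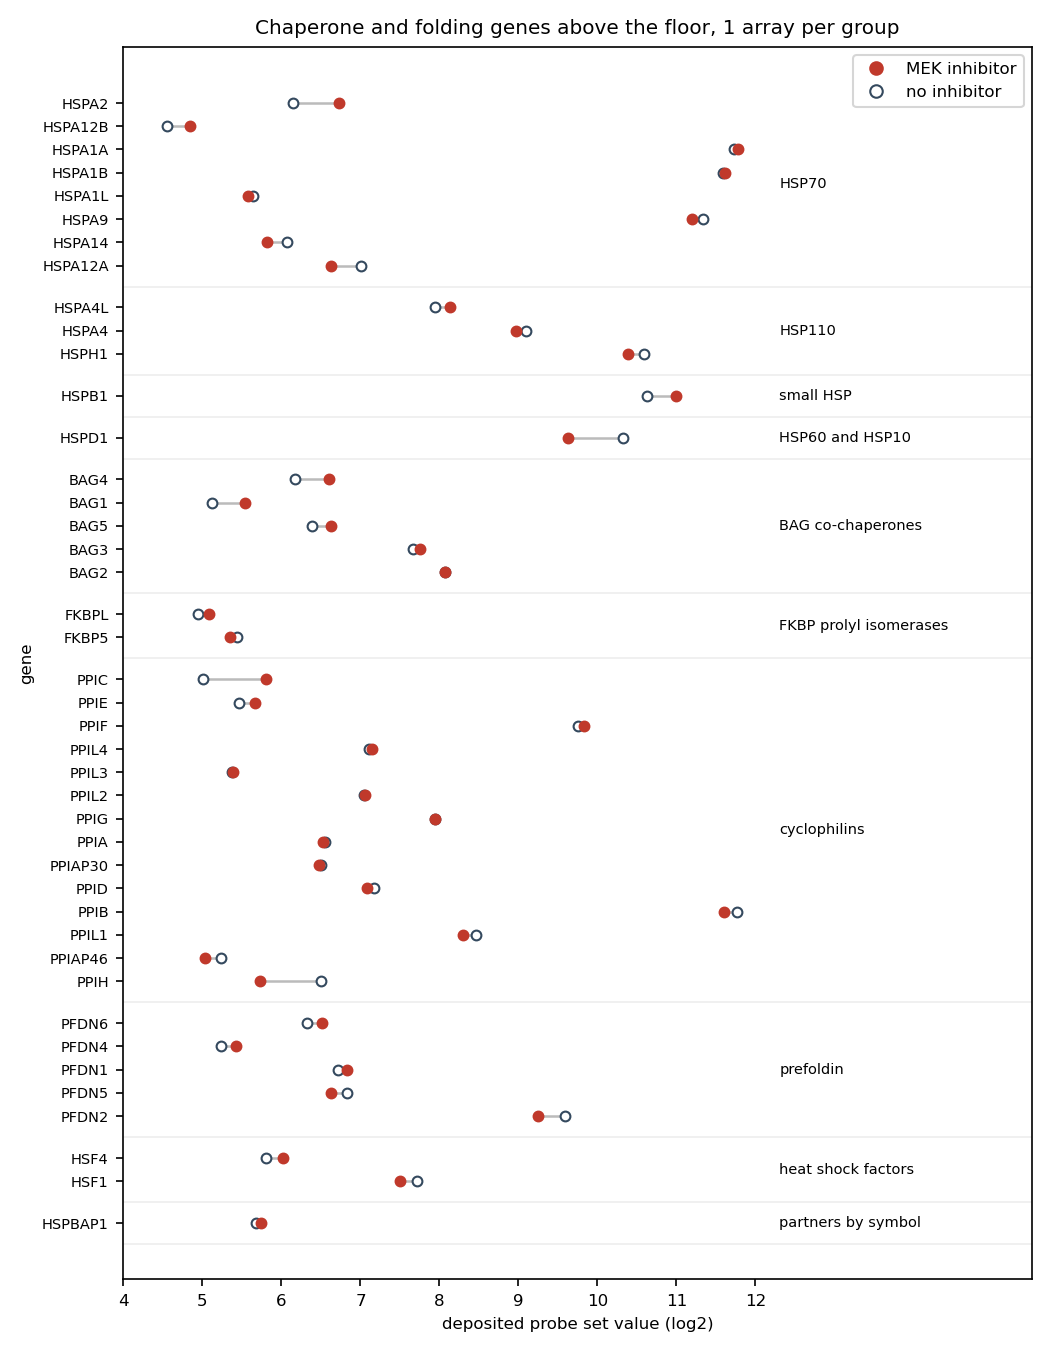
Deposited log2 values (horizontal axis) of the 42 chaperone and folding genes above the floor, by family, with MEK inhibitor (filled red) and without it (open), 1 array each. HSPBAP1 stands in a row of its own as a partner by symbol. The widest gaps are those of PPIC (5.80 with, 5.004 without), PPIH (5.73 with, 6.50 without) and HSPD1 (9.63 with, 10.32 without), while HSPA1A and HSPA1B nearly coincide.

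Of the FKBP prolyl isomerases 2 were measured. FKBP5, an HSP90 co-chaperone induced by glucocorticoids, read 5.35 with MEK inhibitor and 5.43 without it (-0.08). FKBPL, another TPR-type FKBP, read 5.09 with MEK inhibitor and 4.94 without it (0.15), and its 2 probe sets hold identical values. FKBP7 and the pseudogene FKBP9P1 were below the floor. Altogether 12 members lay below it, between 2.37 and 4.45 with MEK inhibitor and between 2.39 and 4.49 without it. Their differences ran from -0.52 (PPIAL4G) to 0.55 (HSF2BP) and are differences between dim signals.

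Prefoldin is a hexamer of different subunits, and its 5 measured genes did not go one way: 3 were higher, 2 lower, and none passed 1.5-fold. PFDN2, a beta-type subunit, read 9.24 with MEK inhibitor and 9.59 without it (-0.35). PFDN5, an alpha-type subunit also known as MM-1 for its binding to MYC, read 6.63 with MEK inhibitor and 6.84 without it (-0.20). The other subunit genes read slightly higher, PFDN6 by 0.20, PFDN4 by 0.18 and PFDN1 by 0.11. VBP1, the remaining subunit gene of the hexamer and no member by symbol, differed by -0.17.

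**Figure D3:**
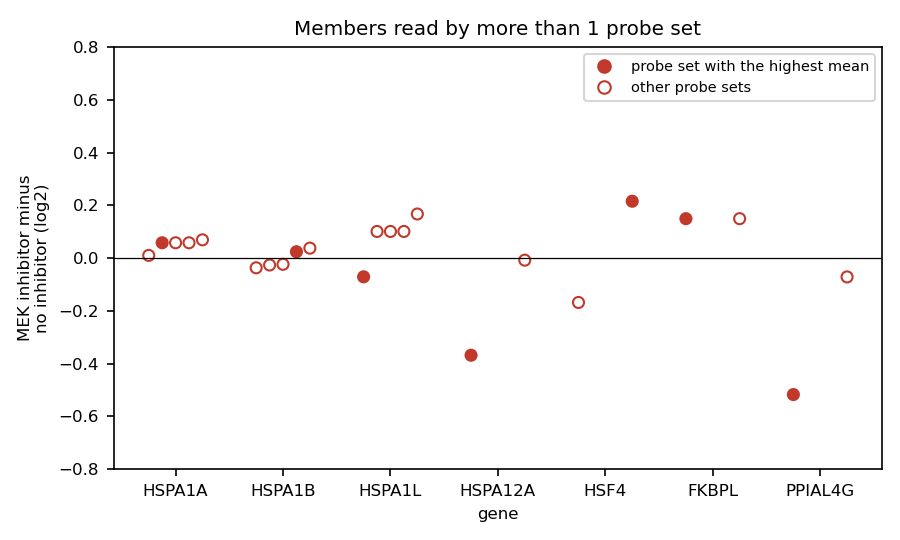
Difference in log2 value (vertical axis, MEK inhibitor minus no inhibitor) of every probe set of the 7 members read by more than 1 (horizontal axis). Filled points are the probe sets used, with the highest mean, and open points the others. HSPA1A and HSPA1B probe sets lie between -0.04 and 0.07, and those of HSF4 (0.22 and -0.17) and HSPA1L differ in sign.

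Genes that work with the chaperones but have other symbols were read from fixed lists, chosen like the members with earlier results known. On the list of the heat shock program 13 of 29 genes were measured, 8 of them members, with 6 higher, 7 lower and a median of -0.13. Past 1.5-fold were HSPD1, already counted among the members, and the HSP90 co-chaperone gene CHORDC1. CHORDC1 read 5.70 with MEK inhibitor and 6.29 without it (-0.59), just past the threshold of 0.58 in size. Of all genes above the floor 8.22% passed 1.5-fold, 3.6% as lower, and their median difference was 0.03. The other non-members on the list were STIP1, the adaptor between HSP70 and HSP90 (-0.20), CACYBP (-0.19), the ubiquitin gene UBB (-0.16) and the mitochondrial ribosome gene MRPL18 (0.14). On the co-chaperone list 19 of 29 genes were measured, with 7 higher, 12 lower and a median of -0.03. Only CHORDC1, the gene already given above, passed 1.5-fold there. The HSP90 kinase adaptor CDC37 (-0.06) and the p23 gene PTGES3 (-0.05) were nearly level.

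Of 36 listed folding genes of the endoplasmic reticulum and of its stress response, 17 were measured. They had a median of 0.02, with 11 higher and 6 lower. The rest, among them HSPA5, HSP90B1 and HERPUD1, had no named probe set, so the list was read only in part. Among its folding genes, the lectin chaperone calreticulin (CALR) differed by 0.23, the oxidase gene ERO1A by 0.23, calnexin (CANX) by 0.02, the HSP110-related HYOU1 by 0.00 and the co-chaperone gene SDF2L1 by -0.20. The sensors and factors ATF6 (0.06), XBP1 (0.00), ATF4 (0.01) and ERN1 (-0.14) were also close to 0. The PERK gene EIF2AK3 read 6.64 with MEK inhibitor and 6.10 without it (0.55), the pseudokinase gene TRIB3 differed by 0.35, and DDIT3 (CHOP), at 5.82 with MEK inhibitor and 5.17 without it (0.65), was the list's only gene past 1.5-fold. Of 18 listed enzymes of disulfide formation 11 were measured, with a median of 0.06 and none past 1.5-fold. TMX4 (0.53), the sulfhydryl oxidase gene QSOX1 (0.49) and ERP44 (0.37) were highest and QSOX2 (-0.27) lowest.

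On the list of tubulin and actin folding 10 of 15 genes were measured, 6 higher and 4 lower. Their median was 0.27, against 0.03 for all genes. The higher genes lay between 0.26 and 0.49 and the lower between -0.38 and -0.17, with none between these ranges. The median thus marks the lower edge of the higher genes and is no typical value. By sign, 3858 of all 7164 genes above the floor were higher and 3303 lower. None passed 1.5-fold. The higher genes included the tubulin cofactors TBCB (7.60 with MEK inhibitor, 7.11 without, 0.49), TBCD (0.30) and TBCE (0.28), and the prefoldin-related PDCD5 (0.34). The lower included PDCL3, a phosducin-like partner of the chaperonin (-0.38), and the tubulin cofactor TBCC (-0.17).

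**Figure D4:**
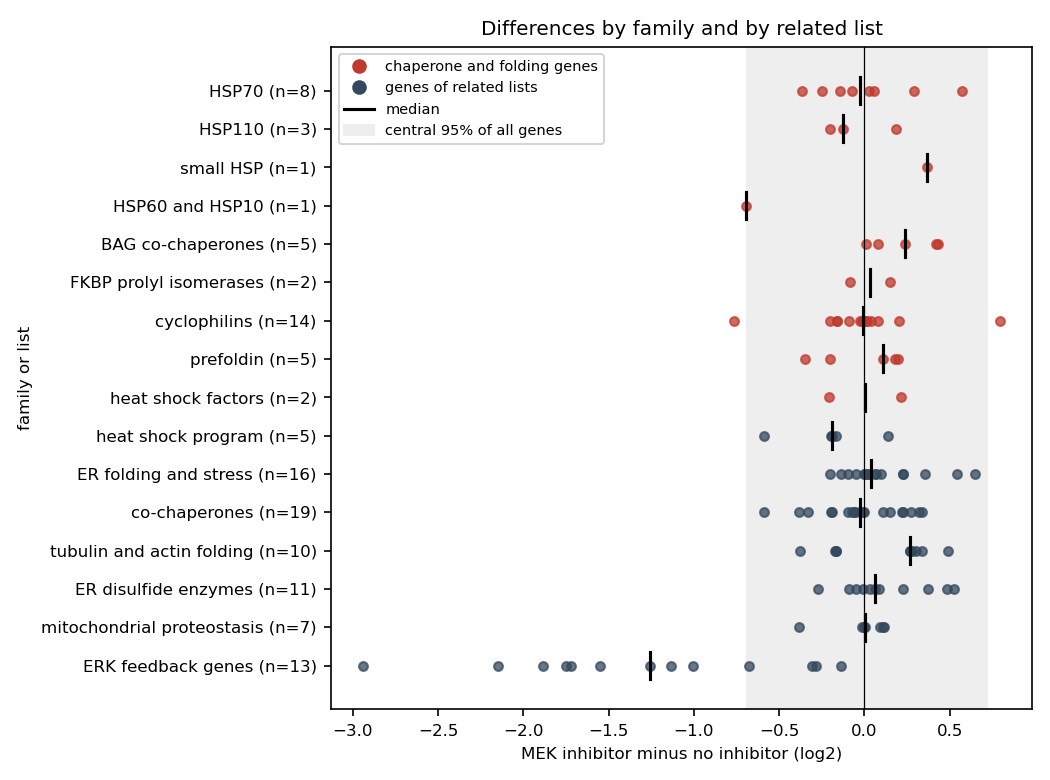
Difference in log2 value (horizontal axis, MEK inhibitor minus no inhibitor) of the measured members by family (red) and of the non-members on the related lists (dark blue), with the median of each as a black bar. The grey band, from -0.69 to 0.72, is the central 95% of all 7164 genes: 39 of the 42 members lie inside it, and 9 ERK feedback genes read lower than -1.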

How the data were processed

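The table the authors deposited holds log2 values, 1 per probe set and array; that scale was read off their range, 1.16 to 13.4, and every fold assumes it. Per the labels' protocols, RNeasy was used to isolate total RNA, of which 100 ng per sample went into the GeneChip WT PLUS kit. Expression Console 1.3 of Affymetrix made the values, per the submitters' processing notes, with settings for background, summarisation and normalization not given in the sources used here. Medians were 3.46 with MEK inhibitor and 3.49 without it, so the values were used as deposited. Array summaries can compress large folds, and a normalization that brings arrays to similar quantiles can hide a change in total RNA. Whether such a step was used is unknown.

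The platform annotation gives 1 symbol for 16098 of 53617 probe sets, several for none, and leaves 37519 unnamed here. The 1287 probe sets with MIR or SCARNA symbols were set aside. Where several probe sets read 1 gene, that with the highest mean was kept. All 54 member identifiers matched the RefSeq gene table of GRCh38.p14, and sequences are RefSeq's. Thresholds were 2-fold and 1.5-fold. Samples were grouped by title. With 1 array per group no p-value was computed, and the number of arrays limits the precision. Named genes were, by rule, the 10 highest and 10 lowest members, up to 6 per family, all members with several probe sets, every HSPD, HSPH, PFDN and HSF gene, and up to 6 genes per related list; further members, ER stress factors and mitochondrial genes were named after their values were seen, to account for all. The members and lists were chosen with earlier results of these data known. The alternatives are in the closing section. The 2-fold count was tried on simulated data with shifts well past that threshold. That checks the code only, and the 1.5-fold count was not tried. Computations used Python 3.11.15, numpy 2.4.6, pandas 2.3.3, statsmodels 0.14.6 and matplotlib 3.10.9.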

Additional observations from a re-analysis of the deposited data

How the results depend on the processing

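No paired analysis was possible because neither condition was replicated, nor could an array be omitted. Tried instead were subtraction of the median difference or of a loess trend, no filter, a floor at the 75th percentile (6.45), averaging the probe sets of a gene, a 3-fold threshold, and leaving out the member with the largest difference. No member passed 2-fold under any of them. Past 1.5-fold were HSPD1, PPIC and PPIH under both scalings, without the filter and with averaged probe sets, and HSPD1 and PPIH with the 75th percentile floor, which PPIC does not reach. None of 103 group values moved by more than 1.5 times (counts) or 0.24 (medians, the SD of differences between probe sets of 1 gene). Some could not move, such as the 2-fold count of 0 at a 3-fold threshold. The 0.24 margin is also wider than most of the medians, so staying within it says little about them. Medians near 0 changed sign within that margin: the members' median was -0.01 after median subtraction, -0.02 after loess and -0.004 with the 75th percentile floor, and the heat shock program read 0.02 with that floor. HSP70 read 0.02 with that floor and with averaged probe sets, and the ER folding list -0.006 after median subtraction. The FKBP and heat shock factor medians, each over 2 genes, also changed sign under some alternatives. The prefoldin median was -0.05 with that floor, and the HSP110 median was 0.03 without HSPH1. BAG2 turned to the other sign (-0.02 after median subtraction, -0.01 after loess), which left 4 of the 5 BAG genes higher. Signs changed for 4 of 42 members after median subtraction (BAG2, HSPA1B, PPIL2 and PPIL3), 3 after loess and 2 with averaged probe sets (HSPA1B and HSPA1L). Signal over background is unknown, which limits what the dim genes show.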
